A study of Homo sapiens with 4 samples.

Results

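The genes LIN28A, LIN28B and L1TD1 encode RNA-binding proteins of pluripotent cells, and the regions assigned to them were examined in chromatin profiles of OGA (O-GlcNAcase), which takes the sugar O-GlcNAc off proteins of the nucleus and cytosol. Regions were taken by gene name from 2 deposited lists of annotated regions. The 3 genes held 1 of 1334 regions in the OGA knockdown list and 3 of 8977 regions in the control list. The profiles were made by CUT&Tag, in which an antibody directs a transposase to a chromatin-bound protein so that nearby DNA is tagged for sequencing. The cells were of the H9 human embryonic stem cell line, kept in PXGL naive medium on mouse feeder cells, with 2 libraries of genotype OGA knockdown, titled shOGA, and 2 of genotype WT, titled ctrl and called control here. No further treatment was given to either group. All 4 libraries came from 1 cell line, the labels do not state that replicates were separate cultures, and the extent of the knockdown was not given in the sources used here. Each list merges both replicates of its group and carries no count, signal or p-value, so sequencing depth was unknown, no region had a value per library, and no difference between the groups at these genes could be tested. The naive label could not be checked with these lists, which measure occupancy and not expression. Of 8 naive markers, 4 had a region of any kind in OGA knockdown and 6 in control, while all protein-coding genes had one in 4.0% and 21.7% of cases. A promoter region was found for 1 of the 8 in OGA knockdown and 3 in control, against 2.05% and 14.9% of all protein-coding genes. Within 1 kb of a start site, 0 of the 8 had one in OGA knockdown and 1 in control.

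LIN28A and LIN28B are paralogues with a cold shock domain and CCHC zinc knuckles. They bind precursors of let-7 microRNAs and keep them from maturing. LIN28A recruits the terminal uridylyltransferases TUT4 and TUT7, which mark the precursors for decay. Mature let-7 in turn represses LIN28B and growth genes such as HMGA2 and MYCN, so that LIN28 and let-7 form a switch between the pluripotent and the differentiated state. L1TD1 arose from the first open reading frame of a LINE-1 retrotransposon, is expressed in human pluripotent cells and has been found together with LIN28A in ribonucleoprotein complexes.

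RefSeq promoter windows of the genes (GRCh38.p14, 250 bases before to 50 after a start site) are shown to place the regions beside annotated starts. The L1TD1 window is that of the start assigned in the lists, while the start assigned for LIN28B is in neither of its windows. LIN28B had a pair of windows and L1TD1 had 1; LIN28A is named only. Capitals mark matches, on either strand, to the 7 motifs searched, which were the octamer ATGCAAAT, the TATA word TATAAA, the box word CCAAT, the GC box GGGCGG, the E-box CACGTG and a pair of OCT4-SOX2 composite words, the octamer preceded by a SOX site and 1 free base.
L1TD1, chr1:62194599-62194898, plus strand: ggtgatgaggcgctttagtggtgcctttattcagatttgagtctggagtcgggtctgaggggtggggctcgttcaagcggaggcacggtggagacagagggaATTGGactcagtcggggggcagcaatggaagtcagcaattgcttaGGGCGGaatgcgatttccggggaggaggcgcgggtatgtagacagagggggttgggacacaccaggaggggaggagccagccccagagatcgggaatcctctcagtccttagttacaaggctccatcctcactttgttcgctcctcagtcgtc
LIN28B, first window, chr6:104940715-104941014, plus strand: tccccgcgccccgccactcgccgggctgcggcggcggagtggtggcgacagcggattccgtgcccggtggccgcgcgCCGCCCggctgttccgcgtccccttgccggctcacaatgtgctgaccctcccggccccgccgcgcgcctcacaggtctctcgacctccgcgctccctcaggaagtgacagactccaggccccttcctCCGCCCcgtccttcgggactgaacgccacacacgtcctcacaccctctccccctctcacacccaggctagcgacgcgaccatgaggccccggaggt
LIN28B, second window, chr6:104956857-104957156, plus strand: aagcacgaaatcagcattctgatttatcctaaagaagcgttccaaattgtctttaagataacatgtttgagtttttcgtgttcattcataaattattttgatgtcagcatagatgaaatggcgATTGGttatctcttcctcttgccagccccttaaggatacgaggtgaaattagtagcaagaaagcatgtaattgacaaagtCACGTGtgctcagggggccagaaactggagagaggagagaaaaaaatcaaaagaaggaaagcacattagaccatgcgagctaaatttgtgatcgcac
The L1TD1 window held GGGCGG and, on the minus strand, CCAAT. The first LIN28B window held 2 matches to GGGCGG, both on the minus strand. The second LIN28B window held CACGTG and, on the minus strand, CCAAT. No match overlapped another in these windows. Of 35116 windows of all genes, 45.0% held GGGCGG, 34.6% CCAAT and 7.26% CACGTG, so the first 2 are common words. The octamer ATGCAAAT, recognised by OCT4, was in none of the 3 windows and in 1.77% of all windows, and TATAAA was in none of them and in 11.5% of all. The OCT4-SOX2 composite words, likewise in none of the 3, were in 1 and 2 of all windows. A CpG count of 37 put the first LIN28B window above 88.7% of all windows, whereas the L1TD1 window, with 14, equalled the median of 14, and the second LIN28B window had 8. None of the 3 windows was overlapped by a region of the member genes: the nearest control region began 262 bp beyond the L1TD1 window and ended 3178 bp before the first LIN28B window.

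In OGA knockdown cells the only region of the 3 genes lay in L1TD1, on chromosome 1 at 62198500 to 62199034 (535 bp; coordinates of the deposited lists, build GRCh38). It was annotated to intron 2 of 4 of L1TD1 and lay 3651 bp past the start site. In control cells each of the 3 genes had 1 region, and all 3 were annotated as promoter within 1 kb of a start site. Among all 20050 protein-coding genes, 4.0% had a knockdown region of any kind, 14.9% had a control promoter region and 13.1% had one within 1 kb. The 3 genes were chosen with results of these lists known, so 3 of 3 is a description and no test.

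**Figure D1:**
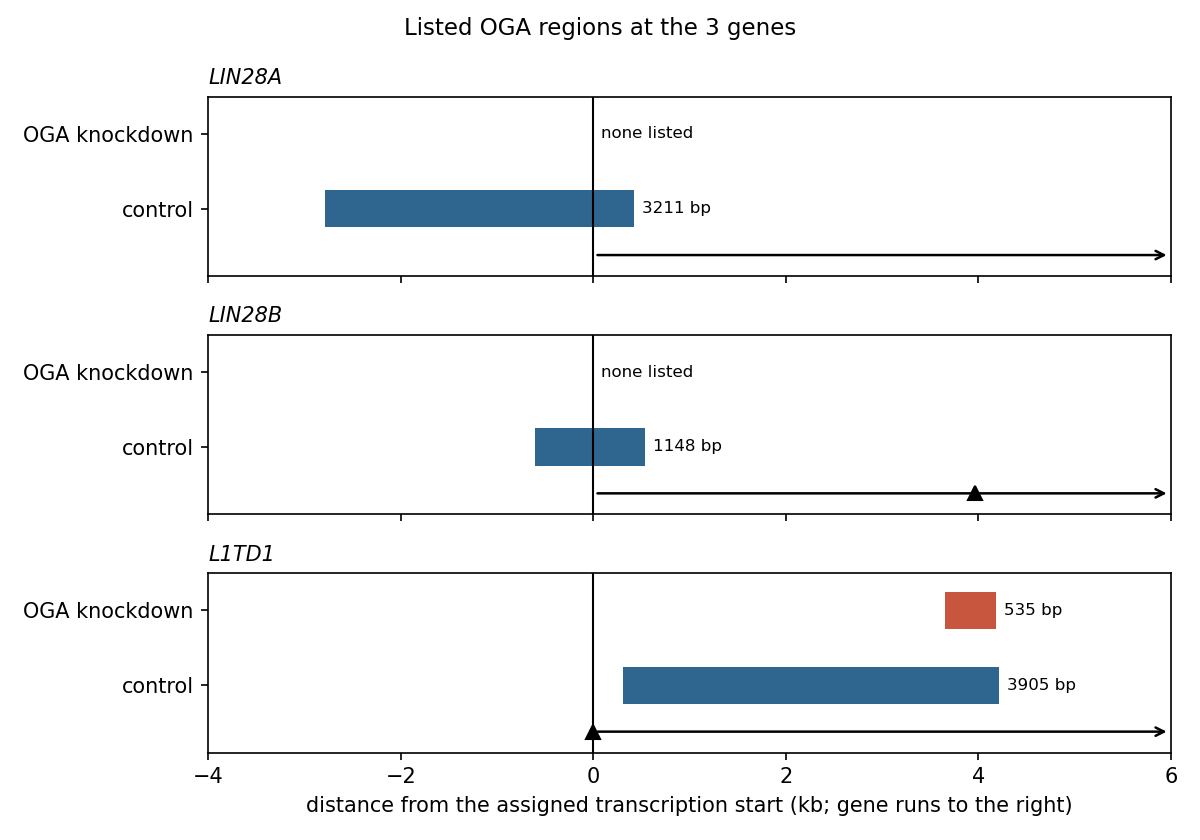
Regions of LIN28A, LIN28B and L1TD1 as distance in kb from the start of the transcript that the deposited lists assign, with OGA knockdown above control. Bars are listed regions with their width in bp, the arrow is the direction of the gene, and triangles are starts of RefSeq promoter windows within the axis. LIN28A and LIN28B have a control region over the assigned start, while both L1TD1 regions begin past it, the knockdown region at 3651 bp and the control region at 312 bp.

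No knockdown region was assigned to LIN28A or overlapped its control region. The control region covered 26407991 to 26411201 on chromosome 1 (3211 bp). It included the assigned start site at 26410778, and 86.8% of it, 2787 bp, lay upstream. That start belongs to XM_011542148.2, a predicted RefSeq transcript model, but the region also covered the start of LIN28A in the RefSeq gene table, 39 bp further on. The region merged 2 peaks of control replicate 1 with 1 peak of control replicate 2. More than 1 peak of replicate 1 stood behind 33.9% of control regions of at least 3 kb and behind 3.92% of all control regions.

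The knockdown region at L1TD1 rested on 1 peak of each knockdown replicate. The L1TD1 region of control cells covered 62195161 to 62199065 on chromosome 1 (3905 bp). It began 312 bp past the start site of NM_019079.5, the transcript assigned, and ended 4216 bp past it, so it lay inside the 5′ part of the gene and left the start site itself uncovered. Like the LIN28A region, it merged 2 peaks of control replicate 1 with 1 of control replicate 2.

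At LIN28B, too, no knockdown region was assigned to the gene or overlapped its control region. The control region covered 104936389 to 104937536 on chromosome 6 (1148 bp) and rested on 1 peak of each control replicate. The region straddled the assigned start at 104936999, with 610 bp before it and 538 bp from it onward. This start too comes from a predicted model, XM_006715477.2. Measured to the RefSeq promoter windows, the region ended 3429 bp before the first LIN28B start and so lay outside the 3 kb limit for a promoter. The start of LIN28B in the RefSeq gene table, however, was 27 bp past the assigned start and was covered by the region. The promoter label of LIN28B thus held with the assigned start and the gene table's start, and not with the starts of the promoter windows. In control, 34.3% of promoter regions were assigned to predicted models, and of the 3172 whose gene had a window, 8.35% lay over 3 kb from every window's start. The whole LIN28B region also lay inside the annotated span of LIN28B-AS1, a long noncoding RNA on the opposite strand, whose own start was 2991 bp away. CUT&Tag regions carry no strand, so the signal cannot be assigned to one of the overlapping genes.

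In the knockdown list the L1TD1 region was narrow, below the median of 727 bp and wider than 22.9% of regions. In control the 3 genes differed in the width of their regions. The L1TD1 region ranked 177 and the LIN28A region 431 by width among the 8977 control regions, wider than 97.8% and 94.9% of the 4212 control promoter regions. The LIN28B region ranked 7344 and was wider than 20.5% of them. The L1TD1 and LIN28A regions were thus 3.40 and 2.80 times as wide as that of LIN28B, and 2.48 and 2.04 times the control median of 1577 bp. Width is that of the merged interval, and the widths of the replicate peaks behind it are not listed.

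**Figure D2:**
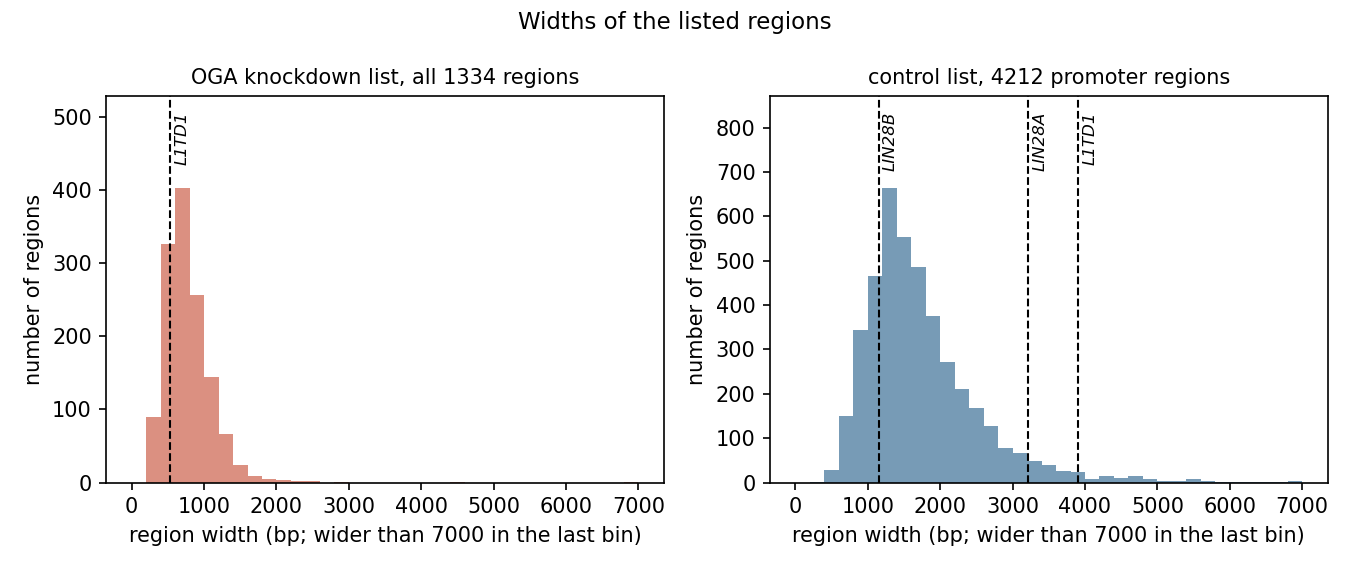
Histograms of region width in bp, for all 1334 OGA knockdown regions (left) and the 4212 control promoter regions (right). Dashed lines mark the member genes: L1TD1 at 535 bp in the knockdown list, and LIN28B at 1148, LIN28A at 3211 and L1TD1 at 3905 bp in the control list.

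L1TD1 was the member gene whose control region overlapped a knockdown region, 1 of 3, against 10.0% of all control regions and 10.1% of control promoter regions. Of all knockdown regions, 69.0% overlapped a control region, as the 1 at L1TD1 did. Any knockdown region was found for 15.3% of the 2983 protein-coding genes with a control promoter region. Among the 288 control promoter regions of at least 3 kb, the class of the LIN28A and L1TD1 regions, 18.1% were overlapped. The overlap at L1TD1 was at the far end of the control region. All 535 bp of the knockdown region lay inside it, with 3339 bp of control region before and 31 bp after. The knockdown region covered 13.7% of the control region, against a median of 39.8% over the 922 overlapping pairs of the lists, and 22 pairs had a lower share. Its centre was 1654 bp from the centre of the control region, against a median of 258.75 bp, and 20 pairs had a larger offset. As a share of the distance from centre to edge, the offset was 84.7%, against a median of 30.1%, and exceeded that of 97.9% of pairs. The L1TD1 control region was 7.3 times as wide as the knockdown region, against a median of 2.47 over the pairs. For a knockdown region lying wholly inside, this width ratio sets the covered share and limits the offset. The covered share and offsets are thus not independent of width. Of the 440 pairs with a control promoter region, 22 (5.0%) had a knockdown region that was not itself annotated as promoter, as at L1TD1. With centres required to lie within 500 bp, no member region was shared between the lists.

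The peak numbers in the lists showed how many peaks of each replicate were called near the 3 genes without entering a list. Numbers ran in order along every chromosome, with 0 inversions in either list, so numbers skipped between listed regions stand for replicate peaks that were not listed. Peak numbers reached 14203 and 13946 in knockdown replicates 1 and 2, against 1334 listed regions. In control replicates 1 and 2 they reached 24287 and 28210, against 8977 listed regions. Most replicate peaks were thus unlisted in both groups, so unlisted peaks near the 3 genes were not particular to them. Around LIN28A the knockdown list was empty over 1.22 Mb, from a region at SELENON 0.627 Mb before the LIN28A control region to one at TRNP1 0.588 Mb after it. Knockdown replicate 1 had 10 unlisted peaks in that interval and replicate 2 had 5. In control, where the interval between the nearest listed regions at UBXN11 and DHDDS spanned 0.108 Mb, each replicate had 3 unlisted peaks. A single-replicate knockdown peak at LIN28A is thus possible but cannot be placed.

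Around LIN28B the knockdown list was empty over 4.39 Mb, between regions at GRIK2 and PRDM1, with 26 unlisted peaks of knockdown replicate 1 and 33 of replicate 2. The control list held the LIN28B region alone over 5.12 Mb. Its regions on either side of the LIN28B region, at ASCC3 and PRDM1, lay 4.04 and 1.08 Mb away. Between them were 24 unlisted peaks of control replicate 1 and 14 of replicate 2. At L1TD1 the knockdown replicates had 3 and 4 unlisted peaks between the preceding listed region, 246204 bp upstream in PATJ, and the L1TD1 region. After the L1TD1 region, replicate 1 had 1 unlisted peak and replicate 2 had 0 over the 0.138 Mb to the next region, so knockdown replicate 2 had no further peak in the rest of the gene. In control, 3 peaks of each replicate were unlisted between the regions before and after that of L1TD1.

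The 3 genes lay in unlike surroundings. Within 1 Mb of the LIN28A start there were 4 regions in the knockdown list and 45 in the control list, the LIN28A region included, so this was a crowded stretch of chromosome 1. The control median was 15 further regions within 1 Mb of a region, and LIN28A, with 44, exceeded 94.1% of control regions. Only 3 of those 44 were wider than the LIN28A region, and 4 were overlapped by a knockdown region. Around L1TD1 there were 3 knockdown and 10 control regions, none of the other 9 control regions was wider than that of L1TD1, and 1 was overlapped by a knockdown region, in PATJ. Around LIN28B there were 0 knockdown regions and its own was the single control region. No other region within 1 Mb was found for 180 control regions (2.01%), LIN28B among them.

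**Figure D3:**
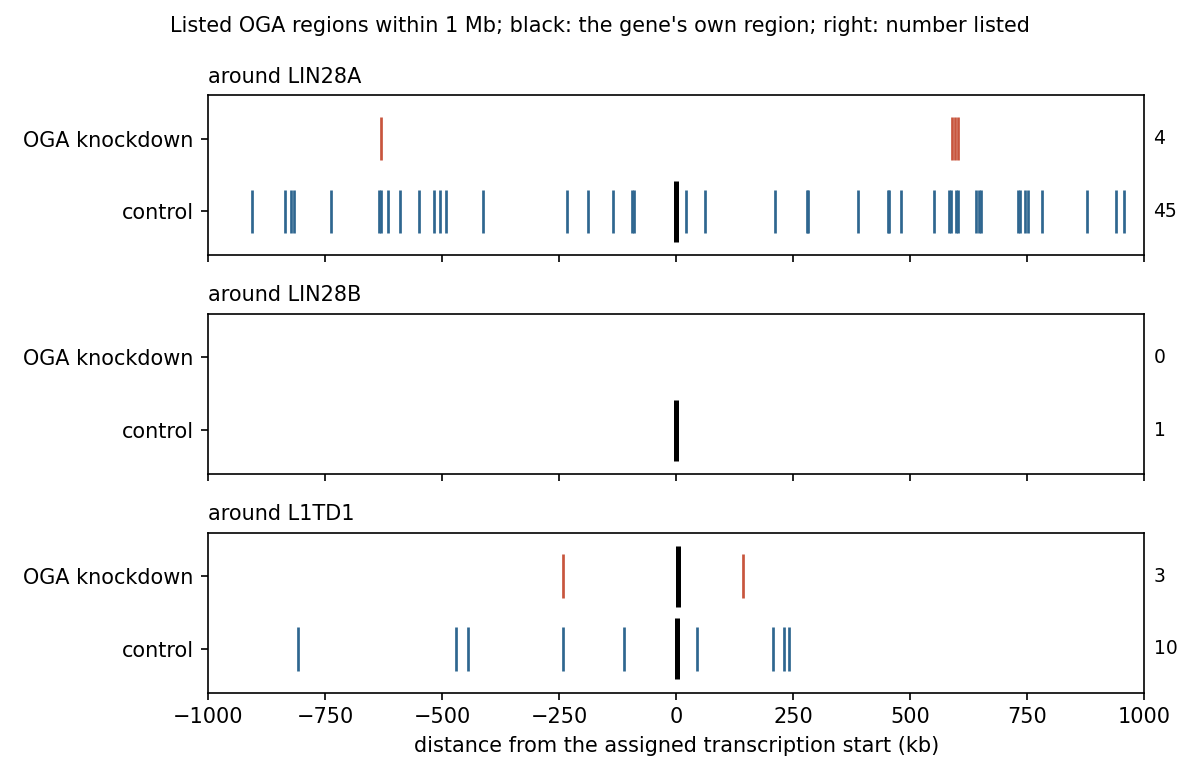
Listed regions within 1 Mb of the assigned start of each gene, as distance in kb, with OGA knockdown above control. Each line is 1 region, black lines are the gene's own, and the number at the right counts the lines: 4 and 45 around LIN28A, 0 and 1 around LIN28B, and 3 and 10 around L1TD1 in knockdown and control.

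Neighbouring genes showed whether the regions were shared along the locus. DHDDS, a subunit gene of the dehydrodolichyl diphosphate synthase complex and the next protein-coding gene after LIN28A, had 0 knockdown regions and 1 control promoter region of 1637 bp, while ZNF683, the one before LIN28A, had none in either list. HACE1 and POPDC1, on either side of LIN28B, had none in either list. KANK4, which follows L1TD1, had 1 knockdown region of 1018 bp and 1 control region of 1415 bp, neither at a promoter. These KANK4 regions did not overlap: the control region began 42876 bp and the knockdown region 141930 bp past the L1TD1 start. PATJ, which precedes L1TD1, had 0 knockdown regions and 1 control promoter region of 2117 bp under its own name.

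Genes most like each member were those with the same numbers of regions in both lists and the closest summed control width. LIN28A and LIN28B shared their counts, 0 knockdown regions and 1 control region at a promoter, with 1916 other protein-coding genes, so this pattern was common. Nearest to LIN28A were MROH8 (3209 bp), GLDC (3214 bp) and ACTG1 (3229 bp). Nearest to LIN28B, each within 1 bp of its width, were HNRNPUL1, IRGQ and OGT, the gene of the enzyme that puts O-GlcNAc on proteins. L1TD1, with 1 knockdown region and 1 control region at a promoter, shared its counts with 222 genes. The nearest to L1TD1 in width were histone genes, H2AC6 (4021 bp), H1-2 (3674 bp) and H4C5 (3577 bp). The likeness is over 2 lists and 1 width only.

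Other genes related to LIN28 and L1TD1 were examined as 6 lists, 100 genes in all. The lists held microRNA processing factors and LIN28 partners, let-7 genes, let-7 targets, cold shock and zinc knuckle genes, RNA-binding protein genes and LINE-1 regulators. Of the 100 genes, 9 had a promoter region in OGA knockdown and 26 in control, and 6 had one in both. The background was 2.05% of protein-coding genes in knockdown and 14.9% in control. It leaves out microRNA genes, whereas the 100 include the 14 let-7 genes and hosts, with 0 promoter regions. Counting any region, 14 genes had one in knockdown and 35 in control, against a background of 4.0% and 21.7%. The lists were matched neither on expression nor on accessibility, so their shares beside the background are a description.

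**Figure D4:**
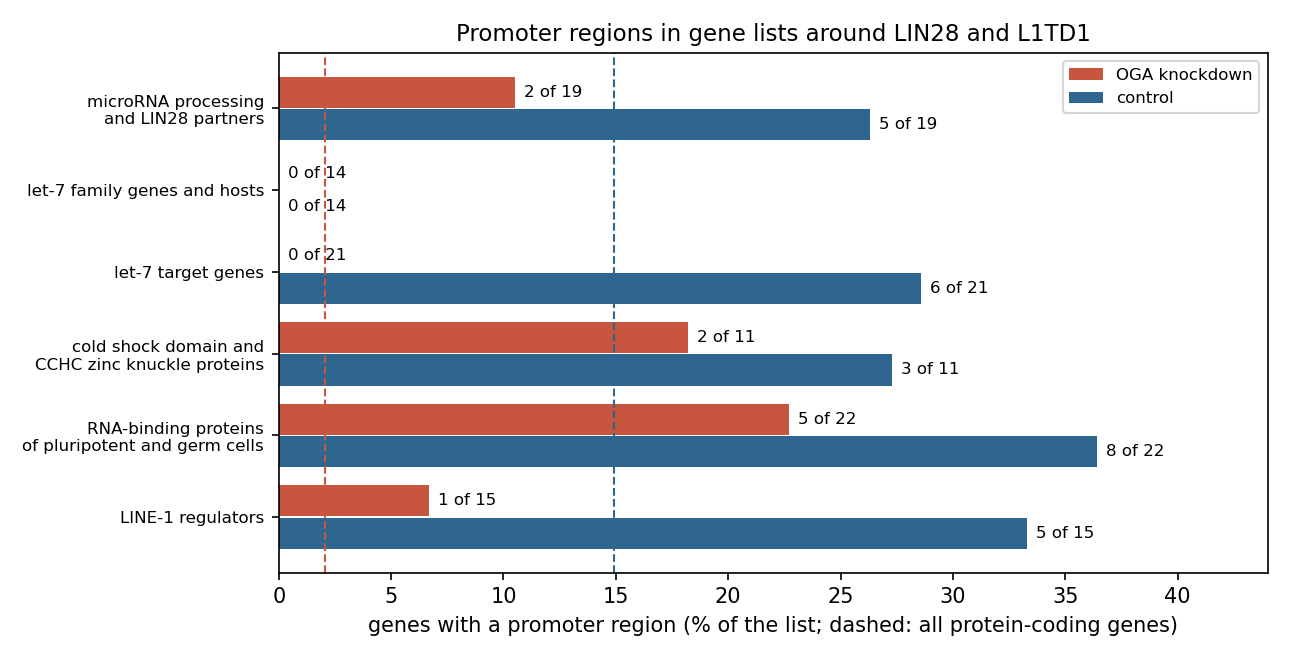
Share of genes with a promoter region in 6 gene lists, in percent of the list, with OGA knockdown above control in each pair and the counts beside the bars. Dashed lines are the shares of all protein-coding genes, 2.05% in knockdown and 14.9% in control. The let-7 genes have 0 of 14 in both, and RNA-binding proteins of pluripotent and germ cells have 5 of 22 in knockdown and 8 of 22 in control.

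Among microRNA processing factors and partners of LIN28, 2 of 19 had a promoter region in knockdown, HNRNPA1 and TRIM71, and 5 of 19 in control. These counts go by the assigned gene name. The HNRNPA1 knockdown region overlapped a control region that was not assigned to HNRNPA1, so its promoter was not a site of knockdown alone. TRIM71, a ubiquitin ligase and let-7 target, stood apart from the 3 member genes in its number of regions, 2 in knockdown and 7 in control. Its control regions reached 6523 bp, inside its first intron, and 1 of the 7 was overlapped by a knockdown region. The other control promoter regions of the list were at AGO1 (2752 bp), DHX9 (1618 bp), AGO3 (1258 bp) and KHSRP (1209 bp). TUT4, TUT7, DIS3L2, DICER1, DROSHA and DGCR8, which act on let-7 precursors or the transcripts they come from, had no region assigned in either list. Having none was common, since 4.0% of all protein-coding genes had a knockdown region of any kind and 21.7% a control one. Over the whole list, 2 of 19 genes had any knockdown region and 5 of 19 any control region.

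The let-7 genes themselves had 0 promoter regions in both lists. Regions were assigned to MIR98 (2749 bp) and MIRLET7F2 (958 bp) in control alone, but lay 23847 and 22613 bp from these genes on the X chromosome, and that of MIRLET7F2 was in exon 43 of 84 of HUWE1. The mature products of these 2 genes share the let-7 seed, in capitals at bases 2 to 8, and the hairpins carry or lack GGAG, the word that the zinc knuckles of LIN28 recognise, also in capitals (RefSeq, GRCh38.p14).
hsa-let-7f-5p: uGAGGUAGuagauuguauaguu
hsa-miR-98-5p: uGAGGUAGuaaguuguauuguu
MIRLET7F2 hairpin: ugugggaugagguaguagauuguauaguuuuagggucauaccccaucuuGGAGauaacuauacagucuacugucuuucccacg
MIR98 hairpin: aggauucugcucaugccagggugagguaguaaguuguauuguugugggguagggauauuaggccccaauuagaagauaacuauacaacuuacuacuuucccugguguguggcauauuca
All 12 let-7 genes matched to RefSeq gave a mature product with this seed. GGAG was in 9 of the 12 hairpins, that of MIRLET7F2 among them and that of MIR98 not, and in 43.4% of 1562 hairpins of all microRNAs.

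The list of let-7 targets held 21 genes without LIN28B and without TRIM71, which was counted among the partners above and had promoter regions in knockdown and control. Of these 21, 0 had a promoter region in knockdown and 6 in control. The 5 widest control promoter regions were at CDC25A (2987 bp), a cell cycle phosphatase, IGF2BP1 (2200 bp), NRAS (2029 bp), MYCN (1957 bp) and IGF1R (1867 bp). Regions outside promoters appeared in both lists at IGF2BP2, IGF2BP3 and ARID3B, where the knockdown regions measured 780, 607 and 832 bp and each overlapped a control region. All 3 IGF2BP genes, which encode RNA-binding proteins, had control regions, with 4 at IGF2BP1, 3 at IGF2BP2 and 2 at IGF2BP3.

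Cold shock domain and CCHC zinc knuckle genes other than LIN28A and LIN28B had a promoter region in 2 of 11 cases in knockdown and 3 of 11 in control. SRSF7, a splicing factor with a zinc knuckle, had one in both lists, 751 bp in knockdown inside 2239 bp in control. YBX1, a cold shock protein, had one in knockdown alone, of 257 bp, and CARHSP1 (6019 bp) and CNBP (1597 bp) in control alone. Of RNA-binding protein genes of pluripotent and germ cells, 5 of 22 had a promoter region in knockdown and 8 of 22 in control. Among those with one in both lists were TRIM71, ZFP36L1 and RBFOX2, although at TRIM71 and RBFOX2 the knockdown promoter region overlapped no control region. RBM47 had a promoter region in knockdown alone (486 bp), and CELF1 and DPPA5 had knockdown regions outside promoters, of 941 and 1274 bp. The widest control promoter regions of this list were at ZFP36L1 (2350 bp), TRIM71 (1984 bp), DPPA5 (1913 bp) and DND1 (1796 bp). LINE-1 regulators, listed for the origin of L1TD1, had 1 of 15 in knockdown, SAMHD1 (534 bp), and 5 of 15 in control, at ADAR (2017 bp), SAMHD1 (1463 bp), HNRNPUL1 (1149 bp), TRIM28 (1055 bp) and ZC3HAV1 (732 bp).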

How the data were processed

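OGA CUT&Tag libraries of H9 cells, 2 with OGA knockdown and 2 controls, were grouped by their sample titles. Tools in the submitters' processing notes, whose roles are not stated, were ChIPseeker 1.12.1, SEACR 1.3, Bowtie2 2.3.4.3, edgeR and DESeq2, with build GRCh38.p13. Per the file headers, the authors deposited 1 annotated list of merged regions per group, with width in bp and signed distance to the nearest start site in bp. The sources used here give neither depth nor peak threshold. The control list repeated 1 line, used once.

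Member regions were rows whose gene name was LIN28A, LIN28B or L1TD1. The genes and lists were chosen with earlier results of these data known. Regions sharing 1 bp or more were counted as overlapping, and no test was run. Genes named were the members, their neighbours in the RefSeq order, the genes most like them, and of each list those with a knockdown region and the 5 with the widest control promoter region; genes of flanking regions, list genes without a region, LIN28B-AS1 and the further regions of TRIM71, IGF2BP1 and IGF2BP2 were named after their values were seen. Not every gene picked this way is reported here. Gene names, neighbours, promoter windows and microRNAs came from RefSeq tables of GRCh38.p14, whose patch keeps chromosome coordinates. Overlap was tested on simulated data. Tools were Python 3.11.15, numpy 2.4.6, pandas 2.3.3 and matplotlib 3.10.9.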

Additional observations from a re-analysis of the deposited data

How the results depend on the processing

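No paired analysis was possible because a listed region joins the replicates of its group. Of 18 alternatives to 8 results, 15 stayed within 1.5 times the reported value. Some of the 15 could not move. The narrowest knockdown region, 228 bp, was above the alternative limit of 200 bp, and all 3 member promoter regions already lay within 1 kb. The 1 knockdown region had 1 peak per replicate, so leaving a replicate out could not change its count. A fall from 3 to 2 was counted as staying. With centres within 500 bp, 0 member control regions were shared with the knockdown list. With control regions narrower than the control median left out, 17 genes of the 6 lists had a control promoter region, and LIN28B dropped out of the member regions. With any region in place of promoter regions, 14 had a knockdown region. Peaks summed over the member regions, 1 region in knockdown and 3 in control, averaged 1 per library in knockdown and 4 in control. With a replicate left out the sums were 1 in knockdown and 3 to 5 in control. With the start sites of the RefSeq promoter windows, and that of the gene table for LIN28A, which was matched to none, 2 of the 3 genes had a control promoter region; with the gene table's start for each gene, 3 had one. Both were chosen after seeing the data. Leaving out a replicate could not be done for the lists. Widths and overlaps compare 2 lists of unknown depth that differ 6.73-fold in length.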
